A study of Mus musculus with 8 samples.

Results

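A set of genes that make, salvage, clear or hydrolyse the building blocks of DNA was followed through the chromatin sites recovered with an antibody against APOBEC2 in differentiating mouse myoblasts. They are Rrm1, Rrm2, Rrm2b, Tyms, Tk1, Dut, Dck, Dctpp1 and Samhd1, 9 of the 21887 protein-coding genes that the RefSeq gene table of the mm10 assembly places on the autosomes and sex chromosomes. They were taken from a list of names, chosen with earlier results of these data known, and all 9 matched the table. A gene was scored in a library when a called peak overlapped the gene, or the 1 kb on either side of it, by at least 1 bp. Rrm1, Rrm2, Tyms, Tk1, Dut and Dctpp1 were set as the S-phase genes, against Rrm2b, Dck and Samhd1.

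The cells were C2C12, an immortal mouse myoblast line that stops dividing and fuses when serum is withdrawn, and all groups were moved to medium with 2% horse serum to start differentiation. Chromatin was precipitated with a polyclonal rabbit antibody against APOBEC2, a muscle-enriched member of the AID/APOBEC deaminase family, in 3 libraries labelled 14 h and 3 labelled 34 h after induction, with 1 input without antibody at each time. The growth protocol gives 24 in place of 14 h for the earlier harvest, so that time is uncertain. The names of the deposited peak lists carry the tag GFPsh, whose meaning the labels do not give. No control antibody and no cells without APOBEC2 were analysed here, and peak lists do not measure expression, so myoblast markers could not be checked. Whether the replicates are separate cultures is not stated, so tests measure the spread between these libraries, which may be technical.

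DNA synthesis needs a matched supply of deoxynucleotides. Ribonucleotide reductase, a complex of the large subunit RRM1 with the small subunit RRM2, reduces ribonucleotides, and thymidylate synthase (Tyms), thymidine kinase 1 (Tk1) and dUTPase (Dut) together supply thymidylate and keep uracil out of DNA. Transcripts of Rrm2, Tyms and Tk1 are textbook products of the G1/S transition and fall when cells leave the cycle. RRM2B, the p53-induced small subunit, deoxycytidine kinase (Dck), which salvages deoxynucleosides, and SAMHD1, which hydrolyses deoxynucleotides, act in resting cells as well.

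The 6 lists held 768 to 5025 peaks, 34 h replicate 2 having the longest. Fold is the authors' value for each peak: the IP fragments at the summit over the local background, with 1 added to each. Fold and p-value together fix the whole number of IP fragments at the summit and the local background, and the weakest called summit of each list stood on 10 or 11 fragments. More are needed where the background is higher, so a gene without a peak may still have been bound, with these or more fragments. The relative depth of the IP libraries was estimated from the lowest background over the narrowest peak, and not from read counts. It lay between 0.985 and 1.17.

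At 14 h, 4 of the 9 genes had a peak in at least 2 libraries, namely Rrm1, Rrm2, Tk1 and Dck, against 4.27% of all protein-coding genes. All 4 had it in all 3 libraries, which 2.96% of all genes did. At 34 h the genes were 5, namely Rrm1, Rrm2, Dck, Dctpp1 and Rrm2b, against 9.01% of all genes. All but Rrm2b had it in all 3 libraries (3.95% of all genes). Rrm1, Rrm2 and Dck passed at both times, as 3.5% of all genes did. Rrm1, Rrm2 and Dck had a peak in all 6 libraries, which 2.26% of all genes had, and 8 of the 9 genes had one in some library, as 20.2% of all genes did. By library, 4, 5 and 5 of the 9 genes had a peak in replicates 1, 2 and 3 of 14 h, where 3.72%, 6.5% and 3.97% of all genes did. At 34 h the counts were 5, 7 and 4, against 9.24%, 18.1% and 4.7% of all genes.

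By the rule of at least 2 libraries, both sets held genes with and without a peak at each time. Of the 6 S-phase genes, 3 had a peak in at least 2 libraries at each time, but they were Rrm1, Rrm2 and Tk1 at 14 h and Rrm1, Rrm2 and Dctpp1 at 34 h. Of the 3 other genes, 1 did at 14 h (Dck) and 2 at 34 h (Dck and Rrm2b). Tyms and Dut, which belong to the S-phase genes, had a peak in no more than 1 library at either time. Dck, from the other set, had one in every library. Genes are not replicates and the set was chosen with earlier results known, so these counts were not tested.

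**Figure D1:**
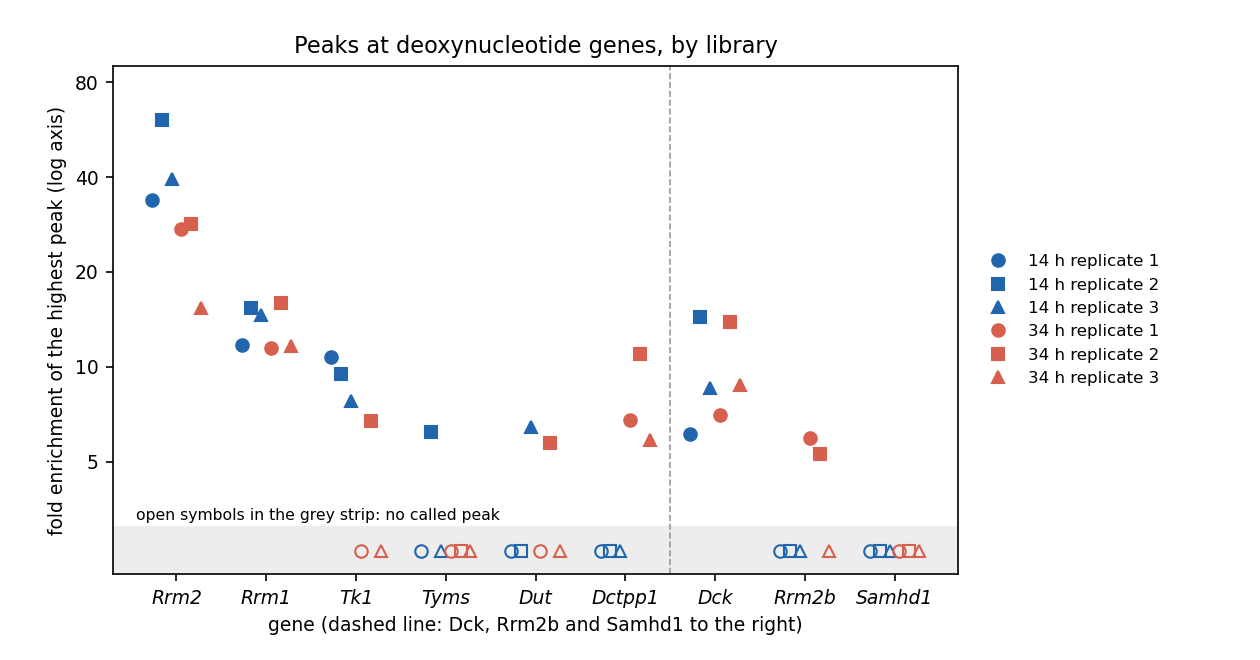
Fold enrichment (log axis) of the highest peak at each of the 9 genes, 1 symbol per library, with 14 h in blue and 34 h in red and open symbols where no peak was called. Rrm2 stands above the other genes in every library, and Samhd1 has open symbols only.

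Promoter sequences of 8 of the 9 genes were in the RefSeq table (GRCm38.p6, the assembly of mm10), from 250 bases before to 50 after the annotated start. Rrm2b had none. The 5 printed here are the 3 with a peak in all 6 libraries, the one with peaks at 34 h only, and the one with no peak. Capitals mark matches, on either strand, to a CCAAT box (CCAAT), a GC box (GGGCGG) or a cell cycle homology element (CHR, TTTGAA). All are printed 5′ to 3′ in the direction of the gene.
Rrm2, chr12:24708004-24708303, plus strand: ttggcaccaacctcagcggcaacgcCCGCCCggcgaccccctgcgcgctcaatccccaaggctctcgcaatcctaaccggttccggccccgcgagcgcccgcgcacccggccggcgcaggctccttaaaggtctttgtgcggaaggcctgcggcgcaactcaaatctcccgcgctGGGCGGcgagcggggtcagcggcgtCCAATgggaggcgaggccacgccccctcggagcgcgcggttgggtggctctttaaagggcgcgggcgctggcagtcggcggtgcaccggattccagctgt
Rrm1, chr7:102441445-102441744, plus strand: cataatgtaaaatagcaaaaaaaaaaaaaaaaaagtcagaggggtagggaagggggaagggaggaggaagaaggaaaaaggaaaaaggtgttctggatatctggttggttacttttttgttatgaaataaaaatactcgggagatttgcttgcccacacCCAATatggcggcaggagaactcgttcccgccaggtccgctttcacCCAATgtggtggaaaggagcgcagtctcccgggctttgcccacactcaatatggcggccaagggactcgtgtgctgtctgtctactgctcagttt
Dck, chr5:88764763-88765062, plus strand: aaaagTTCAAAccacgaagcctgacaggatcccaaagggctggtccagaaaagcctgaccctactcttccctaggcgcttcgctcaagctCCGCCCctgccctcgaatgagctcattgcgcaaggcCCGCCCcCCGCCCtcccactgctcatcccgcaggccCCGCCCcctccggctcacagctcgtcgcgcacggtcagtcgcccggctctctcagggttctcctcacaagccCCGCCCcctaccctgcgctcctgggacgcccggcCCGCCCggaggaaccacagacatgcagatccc
Dctpp1, chr7:127260618-127260917, minus strand: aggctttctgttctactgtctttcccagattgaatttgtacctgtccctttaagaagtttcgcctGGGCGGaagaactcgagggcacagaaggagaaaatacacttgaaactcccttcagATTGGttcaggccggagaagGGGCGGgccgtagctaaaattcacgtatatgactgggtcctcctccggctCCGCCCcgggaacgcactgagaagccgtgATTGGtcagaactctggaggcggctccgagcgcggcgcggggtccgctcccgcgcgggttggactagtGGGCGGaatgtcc
Samhd1, chr2:157135047-157135346, minus strand: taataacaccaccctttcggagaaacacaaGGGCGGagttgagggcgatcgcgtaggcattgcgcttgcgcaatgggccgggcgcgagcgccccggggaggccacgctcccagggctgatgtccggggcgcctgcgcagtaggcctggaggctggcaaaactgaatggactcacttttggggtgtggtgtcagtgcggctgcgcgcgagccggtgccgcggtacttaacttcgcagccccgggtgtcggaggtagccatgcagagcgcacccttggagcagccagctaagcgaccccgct
A GC box was found in 7 of the 8 windows, all but that of Rrm1, and in 35.7% of all 32851 windows of the table. Dck held the most, with 6 matches, and Dctpp1 held 4. A CCAAT box was in 3 windows, those of Rrm1, Rrm2 and Dctpp1 (37.4% of all windows), and a CHR only in that of Dck (17.9%). None of the 8 held the E2F motif as TTTCCCGC, TTTGGCGC, TTTCGCGC or TTTGCCGC, which 2.26% of all windows held, and only Dut held the KLF motif CCCCACCC (9.99%). Of the 416 windows touched by a region with a peak in all 6 libraries, 72.8% held a GC box, 58.2% a CCAAT box, 31.0% a CHR, 20.7% an E2F motif and 9.86% the KLF motif. Median GC content was 61.7% in the 8 windows, 52.7% in all windows and 62% in the touched windows. The windows end 50 bases after the start, and many summits lay outside them. Inside were 6 of 8 summits at Rrm2, 3 of 3 at Dctpp1 and 1 of 6 at Rrm1. At Dck, Tk1, Dut and Tyms 0 lay inside, so there the sequence under the summit was not searched. A motif match is a description of letters and no evidence of a bound factor, and no match says nothing about the factor.

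Rrm2, the small reductase subunit of dividing cells (mm10 chromosome 12, 24708254 to 24714146), carried the strongest peak of the set in every library. Its fold was 33.8, 60.9 and 39.5 in replicates 1, 2 and 3 of 14 h and 27.4, 28.5 and 15.4 at 34 h. That placed it 4th of 765, 2nd of 1320 and 2nd of 794 at 14 h. At 34 h it was 8th of 2202, 14th of 5019 and 35th of 1052. On fold, all 3 libraries of 14 h lay above all 3 of 34 h, with means of 44.7 ± 14.3 and 23.8 ± 7.27 (SD, n = 3 each). These folds are set beside those of the 428 regions with a peak in all 6 libraries. Their median fold was 11.3, 17.3 and 12.0 at 14 h and 9.62, 12.3 and 7.57 at 34 h. How many regions separated alike on uncentred fold was not counted, so the separation is not read as particular to Rrm2. Of the regions most like Rrm2 on fragments, named below, that of E2f3 separated too. Its fold was 30.6, 49.6 and 37.8 at 14 h and 18.7, 27.2 and 16.9 at 34 h. The region of Incenp did not, with 39.9, 58.5 and 37.5 against 28.6, 38.2 and 20.4. The fragments under the Rrm2 folds did not separate the times. Rrm2 summits stood on 71, 144 and 87 IP fragments at 14 h and on 96, 118 and 60 at 34 h, so the ranges overlapped. Counting error alone was wide, with exact 95% Poisson intervals from 55.5 to 89.6 at the 71 and from 45.8 to 77.2 at the 60. The local background was 1.13, 1.38 and 1.23 at 14 h and 2.54, 3.18 and 2.96 at 34 h, 2.32 times as high on average, or 1.73 times with the added 1 that enters the fold. No interval is given for these backgrounds. How many input fragments they rest on was not counted, so the ratio may be poorly measured. Over the 428 regions with a peak in all 6 libraries the median of that ratio was 1.51, and 90.9% of them had a lower ratio than Rrm2.

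The 428 regions were compared between times with limma on log2 summit fragments, each library centred on its median region, with Benjamini-Hochberg adjustment over the 428. Rrm2 lay at 1.32 ± 0.11 above the median region at 14 h and at 1.27 ± 0.22 at 34 h (log2, SD, n = 3). The difference, 34 h minus 14 h, was −0.06 ± 0.14 (SE, adjusted p = 0.883, limma), with a 95% interval from −0.33 to 0.22. On log2 fold in place of fragments, centred alike, Rrm2 fell by 0.46 ± 0.12 (SE, adjusted p = 0.00812, limma). The 3 libraries of a time share 1 input, so their backgrounds are not independent and that p is not one over 3 independent backgrounds. Nor does that p cover the counting error of the input. At 34 h many regions shared 1 background: 40, 43 and 49 of the 428 regions had the value of Rrm2, within 0.001, in replicates 1, 2 and 3, against 3, 1 and 2 at 14 h. Of all regions, 2.1% passed as higher and 0.467% as lower at 34 h on fragments, and 14.7% and 11.9% did on fold. Centred fragments of all 3 libraries of 34 h lay above those of 14 h at 9.35% of regions and below them at 7.71%, and at none of Rrm1, Rrm2 and Dck.

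Rrm2 was also the gene with a second, weaker peak. In replicates 2 and 3 of 14 h a separate peak lay 498 and 507 bp after the start, with folds of 9.24 and 7.18 on 21 and 15 fragments. In 34 h replicate 2 no separate peak was called there, and the main peak, 938 bp long, ran to 24708881, past the position of that summit.

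Rrm1, the large catalytic subunit that RRM2 and RRM2B share (chromosome 7, 102441695 to 102469771), had lower peaks. Its fold was 11.7, 15.3 and 14.6 at 14 h and 11.5, 16.0 and 11.6 at 34 h, on 25, 42 and 33 and on 30, 44 and 25 fragments. The times overlapped in both measures. Relative to the median region the log2 difference in fragments was 0.05 ± 0.19 (SE, adjusted p = 0.924, limma), with a 95% interval from −0.32 to 0.42. The direction turned with another scaling, by relative depth, to −0.10. The background at Rrm1 was 1.09 times as high at 34 h as at 14 h, a smaller ratio than at Rrm2.

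**Figure D2:**
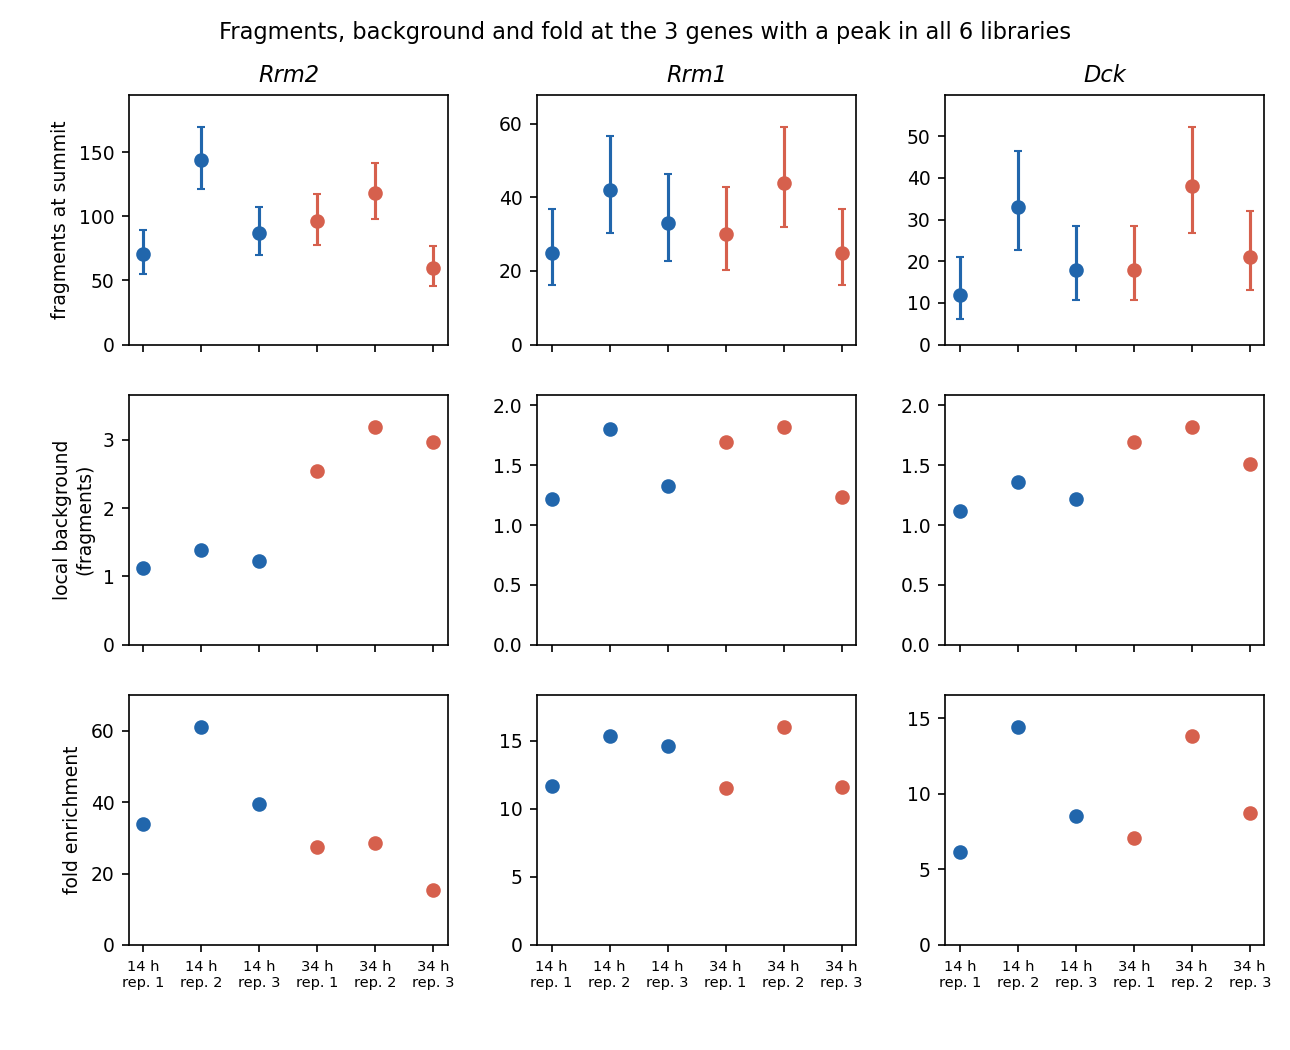
IP fragments at the summit (top, bars are exact 95% Poisson intervals), local background in fragments (middle) and fold enrichment (bottom) for Rrm2, Rrm1 and Dck in each library, 14 h in blue and 34 h in red, on linear axes from 0. At Rrm2 the fragments of both times overlap while the background is higher in all 3 libraries of 34 h and the fold lower.

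Rrm2b, the small subunit for repair and resting cells (chromosome 15, 37923952 to 37961119), had no peak in any 14 h library. At 34 h replicates 1 and 2 had one, with folds of 5.96 and 5.28 on 24 fragments each, and replicate 3 had none. The summits, at 37960983 and 37961029, lay just inside the gene's upper coordinate, and both peaks ran past 37961158, where the lncRNA gene Gm49085 begins. By fold those peaks ranked 1053 of 2202 and 3135 of 5019. Without replicate 1 or replicate 2 of 34 h the gene no longer had 2 libraries. With lists cut to equal length, 765 peaks each, it also dropped out. Of all protein-coding genes, 4.55% had at least 2 libraries at 34 h and none at 14 h.

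Among the thymidylate genes, Tk1, the S-phase thymidine kinase (chromosome 11, 117815519 to 117826087), was found mainly at 14 h. Its fold was 10.7, 9.52 and 7.80 in replicates 1, 2 and 3, on 24, 24 and 18 fragments. At 34 h replicate 2 alone had a peak, with a fold of 6.76 on 27 fragments, no fewer than at 14 h, over a background of 3.14 against 1.33 to 1.63. All 3 libraries at 14 h with at most 1 at 34 h was the pattern of 0.233% of all genes, and at least 2 at 14 h with at most 1 at 34 h that of 0.768%. Replicates 1 and 3 of 34 h gave no value at the site, so the times were not tested. All 4 Tk1 peaks also lay within the neighbouring gene Afmid, which starts at 117825503, so they cannot be assigned to Tk1 alone.

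Tyms, which makes thymidylate from deoxyuridylate (chromosome 5, 30038546 to 30073645), had a single peak, in 14 h replicate 2, with a fold of 6.20 on 13 fragments. It lay 658 bp after the annotated start, farther than any other summit of the set with a promoter entry. In the other 5 libraries the nearest peak was 144 to 1106 kb from the gene. Dut, which removes dUTP (chromosome 2, 125247248 to 125259049), had a peak in 14 h replicate 3 (fold 6.45, 14 fragments) and in 34 h replicate 2 (fold 5.74, 23 fragments). A peak of any library was found at 6.96% of all genes at 14 h and at 19.1% at 34 h, so a peak in 1 library at Tyms or Dut is read against those shares.

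Dctpp1, which breaks down dCTP and its modified forms (chromosome 7, 127256959 to 127260667), was the reverse of Tk1. No library of 14 h had a peak and all 3 of 34 h did, with folds of 6.78, 11.02 and 5.84 in replicates 1, 2 and 3, on 23, 40 and 18 fragments. That pattern was found at 1.04% of all genes. The peaks covered the start, from 127260595 to 127261002 at the widest, and the gene kept at least 2 libraries when the lists were cut to equal length or to −log10 q of at least 5. The nearest peak of 14 h lay 2.31 kb from the gene, in replicate 2, and 60.7 kb from it in replicates 1 and 3. With no value at 14 h, the size of the difference is not known, and a site just under the threshold at 14 h would give the same pattern.

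Dck, the salvage kinase (chromosome 5, 88765013 to 88783277), had folds of 6.13, 14.4 and 8.56 at 14 h and of 7.06, 13.8 and 8.76 at 34 h. Replicate 2 was the highest at both times, as it was for fragments, with 12, 33 and 18 at 14 h and 18, 38 and 21 at 34 h. The times overlapped, although the background was again higher in all 3 libraries of 34 h (1.51 to 1.82) than in those of 14 h (1.12 to 1.36). Relative to the median region the log2 difference in fragments was 0.41 ± 0.23 (SE, adjusted p = 0.427, limma), with a 95% interval from −0.04 to 0.86, which leaves room for no change and for a rise of that size. It was 0.23 without 14 h replicate 1 and 0.26 with scaling by relative depth. On fold, also relative to the median region, the log2 difference at Dck was 0.52 ± 0.22 (SE, adjusted p = 0.0780, limma). At Rrm1 it was 0.37 ± 0.18 (SE, adjusted p = 0.132, limma), and both came from backgrounds that share 1 input per time. Without centring, the mean fold of 34 h was 1.02 times that of 14 h at Dck and 0.939 times at Rrm1. None of the 3 regions passed on fragments by limma, and none had an unadjusted p under 0.05, although 1 did with the replicate block, without 14 h replicate 2 or without 34 h replicate 1. Samhd1 (chromosome 2, 157097534 to 157135096) had no peak in any library, and the nearest peak of each library lay 69.3 to 69.4 kb from the gene, beyond the 1 kb flank.

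**Figure D3:**
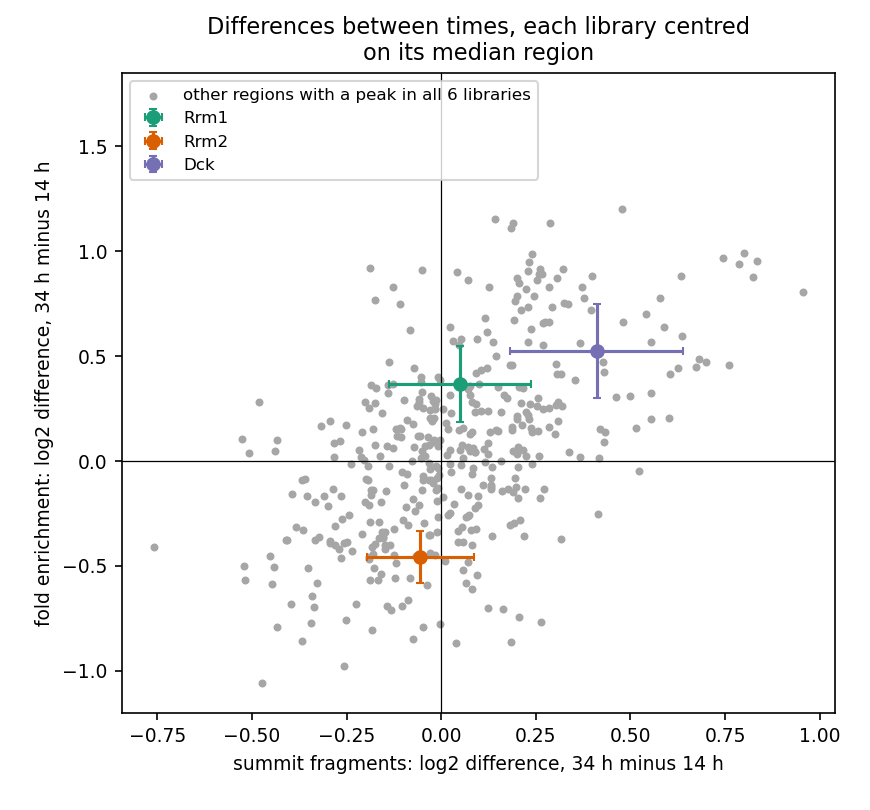
Log2 difference between times (34 h minus 14 h) in summit fragments (horizontal) and in fold enrichment (vertical) for the 428 regions with a peak in all 6 libraries, each library centred on its median region, with SE bars for Rrm1, Rrm2 and Dck. Rrm2 lies near 0 on fragments and at −0.46 on fold.

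The summits of these genes differed in where they lay relative to the gene's start. At Rrm2 the main summit lay 70 to 85 bp before the annotated start in all 6 libraries, a spread of 15 bp, at or just before the GC box at −75 to −70 and ahead of the CCAAT box at −50 to −46. At Dctpp1 the 3 summits lay 84 to 179 bp before the start. At the other genes with more than 1 library they lay after it: at 44 to 140 bp for Rrm1 (6 libraries), 127 to 158 bp for Dck (6 libraries), 131 to 178 bp for Tk1 (4 libraries) and 110 to 158 bp for Dut (2 libraries). Over the 6 lists, 6357 summits lay within 1 kb of the nearest start of a protein-coding gene, their median was 40 bp before it, with quartiles at −115 and 18 bp, and 32.3% lay after it. All 6 Dck summits were thus beyond the upper quartile, as were all 6 of Rrm1. The table's start lies inside the gene's outer coordinate at Tk1, Tyms and Dut, and distances refer to the table's start. The summits of 1 gene are repeat measurements of 1 site, and no test was made.

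**Figure D4:**
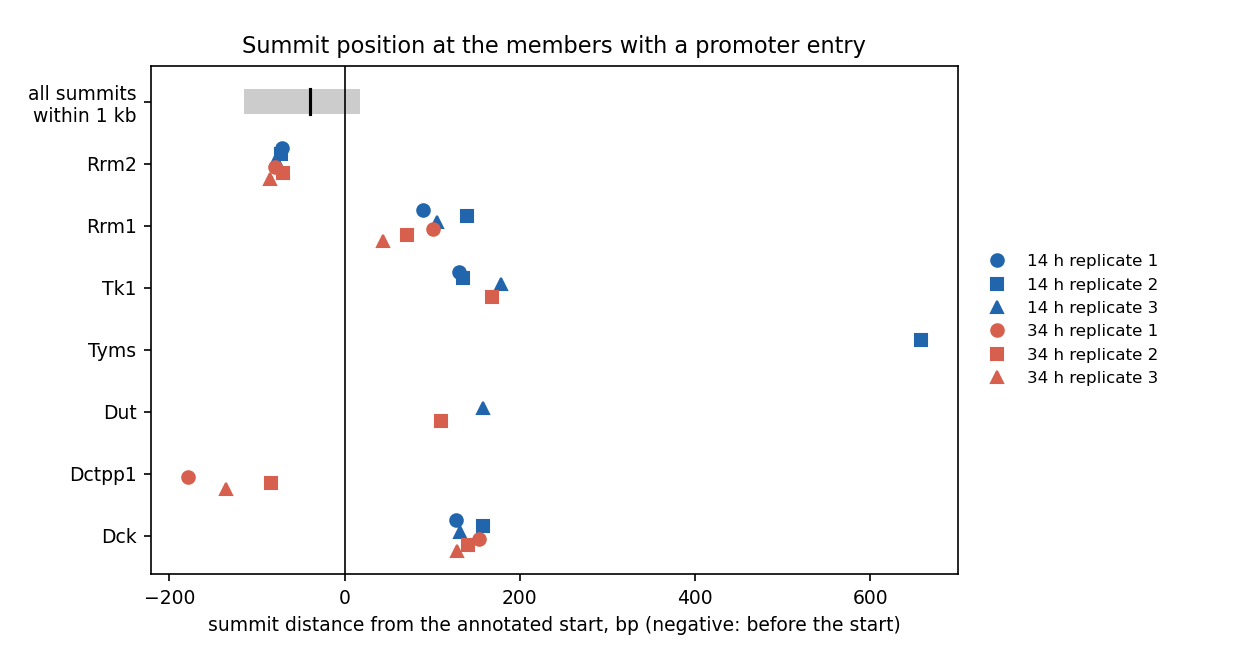
Distance in bp of the highest summit from the annotated start for each gene with a peak and a promoter entry, 1 symbol per library, with the quartiles (grey bar) and median (line) of all 6357 summits within 1 kb of a start. Rrm2 and Dctpp1 lie before the start, and Rrm1, Tk1, Dut and Dck after it.

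The regions most like the members, by the mean absolute difference of centred log2 summit fragments over the 6 libraries, were Incenp (0.10) and E2f3 (0.10) for Rrm2. For Rrm1 they were Mdm1 (0.10) and Ccdc34 (0.10), and for Dck Rnf26 (0.09) and Ska1 (0.15). The Incenp region held 88, 146 and 87 fragments at 14 h and 88, 128 and 61 at 34 h, and that of Rnf26 held 15, 31 and 19 and 18, 38 and 20.

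The wider nucleotide pathway was read through 56 other genes of purine and pyrimidine synthesis, nucleotide kinases, the folate cycle, salvage and transport. At 14 h 7 of them (12.5%) had a peak of at least 2 libraries, and at 34 h 13 (23.2%), beside 4.27% and 9.01% of all genes. Both times were found at 5, only 14 h at 2, only 34 h at 8, and 32 had no peak in any library. The 34 h count fell to 5 (8.93%, against 4.5% of all genes) without replicate 1 and to 4 (7.14%, against 3.98%) without replicate 2. With lists of equal length it fell to 1, Shmt1, or 1.79% of the list, below the 3.16% of all genes, so the list's higher share at 34 h did not hold there.

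Shmt1, the cytosolic serine hydroxymethyltransferase that charges folate for thymidylate synthesis, had the highest fold of this list in each 14 h library. Its fold was 11.5, 20.7 and 12.96 at 14 h and 5.94, 9.57 and 6.49 at 34 h, without overlap. The median fold of regions with a peak in all 6 libraries was 11.3, 17.3 and 12.0 at 14 h. At 34 h that median was 9.62, 12.3 and 7.57. How many of those regions separated as Shmt1 did on uncentred fold was not counted, so the separation is not read as particular to Shmt1. The fragments at Shmt1 were 22, 45 and 26 at 14 h and 20, 39 and 22 at 34 h. The background at Shmt1 was 0.996 to 1.22 at 14 h and 2.54 to 3.18 at 34 h. As at Rrm2, relative to the median region, fragments did not pass (log2 difference −0.12 ± 0.21, SE, adjusted p = 0.854, limma) and fold did (−0.56, adjusted p = 0.0379, limma). The backgrounds share 1 input per time, and in replicates 1 and 2 of 34 h they had the values of Rrm2, 2.54 and 3.18. Shmt1 is thus no independent second case on fold. Ppat and Paics, which catalyse early and middle steps of purine synthesis, had peaks in all 6 libraries, but they adjoin and shared every one of them.

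Nudt1, which clears oxidised purine nucleotides, had peaks in all 3 libraries of 14 h and 2 of 34 h, although the peak of 14 h replicate 2 lay apart from the others, by the gene Mrm2, and the other 4 also touched Mad1l1. Mthfd1, of the folate cycle, and the nucleoside transporter gene Slc29a1 had 2 libraries of 14 h and 1 of 34 h. At 34 h only, Atic, which ends purine synthesis, had all 3 libraries, with folds of 5.17, 7.04 and 5.38. Dtymk, the kinase after Tyms and Tk1 on the way to dTTP, had replicates 2 and 3 of 34 h, with folds of 9.71 and 5.38. Gart, Nme1, Mthfd2, Adk and Nt5c2 had replicates 1 and 2 of 34 h, and the 2 peaks at Nt5c2 lay apart. Both peaks at Gart were shared with Son, both at Nme1 with the lncRNA gene Gm35198, and 1 of 3 at Mthfd2 with Mob1a. Adss, of adenylate synthesis, had the same 2 libraries and 14 h replicate 2.

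**Figure D5:**
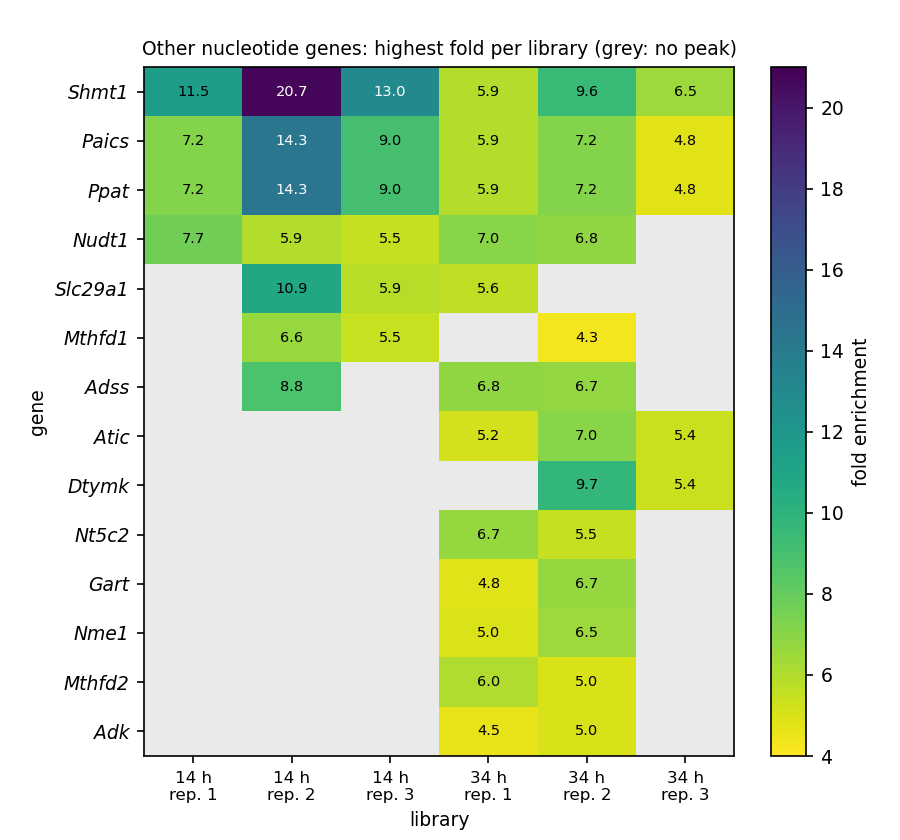
Highest fold enrichment per library at 14 of the 15 other nucleotide genes with a peak of at least 2 libraries at either time, with genes in rows and libraries in columns, and grey where no peak was called. Shmt1, Ppat and Paics have values in all 6 columns, and the genes of the lower rows have values at 34 h alone.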

How the data were processed

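Per the submitters' processing notes, Subread, MACS2 and mm10 were used, with versions not given in the sources used here. By the deposited names, every IP library had its own call, with the matching input as control. The deposited lists give a fold (a ratio of IP signal to local background), −log10 p-values, −log10 q-values and an integer score; a deposited summit list per library matched the peak lists in 100% of summits.

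The IP fragments at a summit and the background were solved from fold and −log10 p for 100% of peaks, to within 0.001. Relative depth was the lowest background over the narrowest peak. Peaks overlapping by 1 bp were merged into 5567 regions, 428 with a peak in all 6 libraries, and only those entered the limma fit (limma 3.58.1, R 4.3.3, trended variance, threshold 0.05), so a site missing in 1 library has no test. The fit was tested on simulated data. Gene counts, positions and motif searches used Python 3.11.15. Named genes were the 9 members, list genes with a peak of at least 2 libraries at either time, and the 2 regions most alike per member. The members, the wider list and the tests were chosen with earlier results of these data known. Alternatives were the peak threshold, list length, overlap, window, libraries required, scaling, pseudocount, block and each library left out. RefSeq matched 56 of 57 listed symbols of the wider list; the other is a newer name of Adss. Some genes of the wider list are counted but not reported by name here. The Poisson intervals cover counting error only, and the limma intervals rest on the spread between libraries.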

Additional observations from a re-analysis of the deposited data

How the results depend on the processing

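Of 156 alternative values, 130 kept their direction and their side of the threshold, or stayed within 1.5 times a count. With any library sufficing, S-phase genes numbered 5 at 14 h and 5 at 34 h, and the wider list 13 and 20. By that rule 6.96% and 19.1% of all genes had a peak, and 23.2% and 35.7% of the wider list. With equal list lengths or all 3 libraries required, Dck alone of its set remained at 34 h (1 gene each), and the wider list had 1 and 4 (1.79% and 7.14%, against 3.16% and 3.95% of all genes). Leaving out a library gave 1 to 2 genes of that set and 4 to 12 of the wider list at 34 h, beside 3.98% to 8.44% of all genes. Regions differing between times numbered 11 on fragments, 114 on fold, 19 with 1 added to the fragments, 18 with a mean of at least 20 fragments, 19 at −log10 q of at least 5, 0 with scaling by relative depth, and 1 to 15 with a library left out (1 without 34 h replicate 3, 3 without 34 h replicate 1, 5 without 14 h replicate 3). The median region shifted by −0.12 (log2) under depth scaling. Members that differed numbered 0 in all of these but fold, which gave 1 (Rrm2). Directions turned for Rrm1 under depth scaling (−0.097) and without 14 h replicate 2 (−0.011), and for Rrm2 without 34 h replicate 3 (0.053); the cause was not tested. With a library left out, Rrm1 ranged from −0.011 to 0.15, Rrm2 from −0.17 to 0.053 and Dck from 0.23 (without 14 h replicate 1) to 0.58 (without 34 h replicate 1), Dck was 0.26 under depth scaling, and on fold Rrm2 was −0.46. Same-numbered libraries had correlated deviations of 0.06, 0.32 and 0.10 for numbers 1, 2 and 3, and not every library correlated best with its own number. The replicate block gave 38 regions and 0 members. The exact permutation test could not pass with 3 against 3 libraries (smallest p = 0.1) and gave no count. Depth limits all sites: the weakest called summits held 10 fragments, and more are needed over a higher background.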
